A study of Homo sapiens with 6 samples.

Results

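Protocadherins are calcium-dependent adhesion proteins of the cadherin superfamily, and 49 protein-coding genes whose symbol begins with PCDH were present among the 22681 genes of the deposited count table, of which 16031 are protein coding. They were taken by symbol alone, with earlier results of these data known. Of the 49, 8 belong to the PCDHA cluster, 15 to the PCDHB cluster and 16 to the PCDHG cluster, and 10 are non-clustered protocadherins. RNA was sequenced from TPC-1-Len, a human papillary thyroid carcinoma line (TPC-1) that had been made resistant to lenvatinib, an inhibitor of receptor tyrosine kinases. The shKRT15 group held 3 cultures that had received a short hairpin RNA against KRT15, a type I keratin, and the shNC group held 3 cultures that had received a non-targeting hairpin. Every culture was resistant and was kept in 10 µM lenvatinib, so the comparison concerns KRT15 knockdown within resistant cells, and neither sensitive cells nor cells without the drug were part of it. The hairpins were delivered by liposomal transfection into 1 cell line. The sources used here give neither the hairpin sequence nor the time of harvest, and they call the cultures biological replicates without saying whether each was transfected separately, so the p-values here reflect how far these cultures vary and that spread may be technical.

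Clustered protocadherins lie in tandem on the long arm of chromosome 5. Each PCDHA or PCDHG gene has its own promoter and a large variable first exon, which encodes the extracellular cadherin repeats and the transmembrane segment and is spliced to constant exons shared by its cluster. PCDHB genes are single exons without constant exons. A cell activates a few of these promoters, with DNA methylation keeping others silent and CTCF and cohesin joining active promoters to enhancers, and the resulting proteins bind like proteins on neighbouring cells. The system is best known from neurons, where it gives cells a surface identity. Non-clustered protocadherins (PCDH1, PCDH7, PCDH9 and others) lie apart, each with its own cytoplasmic tail. The annotation in the deposited table gave calcium ion binding, plasma membrane and homophilic cell adhesion to all 49 genes and nervous system development to 35 of them.

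Most promoters of clustered genes carry a conserved element with a CGCT core. Windows around a CGCT are shown here because expressed and nearly silent genes of a cluster both have them. RefSeq promoters on GRCh38.p14, from 250 bases before to 50 bases after the start, were found for 43 of the 49 genes. PCDHGC5, PCDHA3, PCDHB6, PCDHB11, PCDHGA12 and PCDH10 had no entry. Each line gives 26 bases, 5′ to 3′ on the plus strand of chromosome 5, with CGCT in capitals. Where a promoter held several matches, the window most like those of its cluster was taken, which favours likeness. The first 10 lines are tested genes, and the last 3 (PCDHA1, PCDHB8, PCDHGA8) had between 2 and 4 reads in all.
PCDHA4: agccacatgatgtCGCTctttaccac
PCDHAC2: agcagtccgggttCGCTgtccgccac
PCDHB2: agacgcggggtggCGCTgcagcctta
PCDHB10: ggccacacggtggCGCTgcaggctaa
PCDHB12: agacgcgtggtggCGCTgcaggataa
PCDHB14: agacacatggtggCGCTacaggataa
PCDHGA9: ggactctgagcgcCGCTgttgatcaa
PCDHGA10: ggactctgagcgcCGCTgttcaccta
PCDHGB6: agcctctgggcgcCGCTgtcggccag
PCDHGC3: ggactctgtgtgcCGCTgtcggccaa
PCDHA1: ggccacatgatgtCGCTgtacaccac
PCDHB8: ggacccgtggtggCGCTgcaggataa
PCDHGA8: ggactgtaagcgcCGCTgttcaccta
PCDHA4 holds its window at chr5:140806982-140807007, PCDHB2 at chr5:141094547-141094572 and PCDHGC3 at chr5:141475883-141475908. A CGCT on the strand of the gene was found in 33 of the 34 clustered genes of the table that have a promoter entry (97.1%), against 14765 of all 27305 promoters of the same length (54.1%). On either strand the shares were 97.1% and 69.4%, with AGCG as the reverse complement. PCDHA9 was the clustered gene without a match. Between promoters of 1 cluster, the windows shared a median of 18.5 of 26 bases in PCDHA, 21 in PCDHB and 19 in PCDHG. The core lay a median of 55, 61.5 and 60 bases before the start in these clusters (distances of -55, -61.5 and -60). The clustered genes with enough reads to test and those without were alike in these counts. A CGCT was present in 10 of 10 and in 23 of 24. The median number of CG dinucleotides per promoter was 7.5 in both, against 14 over all promoters. Any CGCT counted as a match, so a match need not be the conserved element. The window of PCDHAC2 lacks the catgatgt that PCDHA4 and PCDHA1 have before CGCT. A match describes these letters and is no measurement of binding.

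The promoter of PCDHGC3, the most abundant protocadherin gene of these cells, held 5 CGCT matches and 18 CG dinucleotides, at chr5:141475716-141476015 (plus strand, GRCh38.p14). It is given whole, with every CGCT in capitals.
PCDHGC3: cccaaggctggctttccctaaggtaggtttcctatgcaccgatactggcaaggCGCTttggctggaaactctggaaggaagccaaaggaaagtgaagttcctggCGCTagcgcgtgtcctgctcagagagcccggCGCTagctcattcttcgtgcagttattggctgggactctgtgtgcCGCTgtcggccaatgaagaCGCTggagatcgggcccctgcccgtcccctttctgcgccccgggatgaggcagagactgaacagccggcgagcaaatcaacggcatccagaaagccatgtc

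Total counts were 39868231 to 41343780 per library in shKRT15 and 36286059 to 36808695 in shNC. Levels are given as CPM, the count per 1000000 reads of TMM-scaled library size. KRT15, the targeted gene, had 25.01, 24.3 and 24.9 CPM in shKRT15 replicates 1 to 3, against 28.7, 31.9 and 36.2 CPM in shNC replicates 1 to 3. The groups did not overlap, and KRT15 fell by 23.4% (log2 fold change -0.38 ± 0.10 SE, adjusted p = 0.00465 by edgeR's quasi-likelihood test with Benjamini-Hochberg adjustment over all tested genes). A two-sided exact permutation test of the 3 against 3 values gave p = 0.1, the smallest it can give. Of 7 thyroid markers 4 were tested, and 0 were called by edgeR at an adjusted p under 0.05. PAX8 was at 389 to 433 CPM in shKRT15 and 372 to 378 CPM in shNC, and FOXE1 was at 13.8 to 17.3 CPM in shKRT15 and 13.7 to 16.2 CPM in shNC. HHEX averaged 7.85 CPM in shKRT15 and 8.64 CPM in shNC. TG averaged 0.808 CPM in shKRT15 and 1.58 CPM in shNC (log2 fold change -0.97, edgeR adjusted p = 0.0512). DUOX2, not tested, averaged 0.0553 CPM in shKRT15 and 0.158 CPM in shNC, while NKX2-1 and TSHR had a single read each in 1 shNC library. The labels call the cells epithelial, and of 8 epithelial markers KRT18 averaged 215 CPM in shKRT15 and 116 CPM in shNC, KRT7 22.9 CPM in shKRT15 and 23.4 CPM in shNC, KRT8 14.9 CPM in shKRT15 and 12.9 CPM in shNC, and OCLN 7.25 CPM in shKRT15 and 7.23 CPM in shNC. EPCAM, CDH1 and CLDN7 were at or near 0 in both groups. Of the 5 tested, KRT18 was higher and CLDN4, at 0.113 CPM in shKRT15 and 2.60 CPM in shNC, was lower (log2 fold changes of 0.89 and -4.49, edgeR adjusted p = 1.37e-08 and 1.62e-07).

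Of the 49 protocadherin genes, 17 had enough reads to be tested (about 10 reads in at least 3 of the 6 libraries, of either group, and 15 in all), and 4 of them were lower in shKRT15: PCDH7, PCDH12, PCDHA4 and PCDHGC5. By edgeR 0 were higher, as were 0 at an unadjusted p under 0.05, 0 by DESeq2 and 0 by limma-voom. The 4 called genes are 23.5% of those tested, whereas 45% of all 14356 tested genes were called at an adjusted p under 0.05, 22.1% higher and 23% lower. The balance of directions over all genes depends on the processing: 3169 were higher and 3295 lower here, 3740 were higher and 2711 lower with total counts as the scaling, and 3800 were higher and 3243 lower after correction for GC content and length. Most protocadherins are low, and the share called differs with level: among genes with a mean under 3 CPM 23.4% were called and 13.1% were lower, and among those of at least 3 CPM 51.1% were called and 25.7% were lower. Below 3 CPM, 3 of 12 tested protocadherins were lower, and at or above it 1 of 5 was. In the low genes the 25% called, all of them lower, stand beside backgrounds of 23.4% called and 13.1% lower. Both 12 and 5 genes are too few to read a share from. The groups did not overlap in CPM for 6 of the 17 genes, lower in shKRT15 each time. Over all tested genes, 54% did not overlap, and 27.1% of all tested genes did not overlap and were lower in shKRT15. The median log2 fold change of the 17 was -0.22, with 11 negative and 6 positive, against -0.0013 over all tested genes. A gene that passes the filter through 1 group only is more likely to differ, so these counts are a description. The samples are bulk cultures, in which fewer cells expressing a gene and less RNA per cell cannot be told apart.

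**Figure D1:**
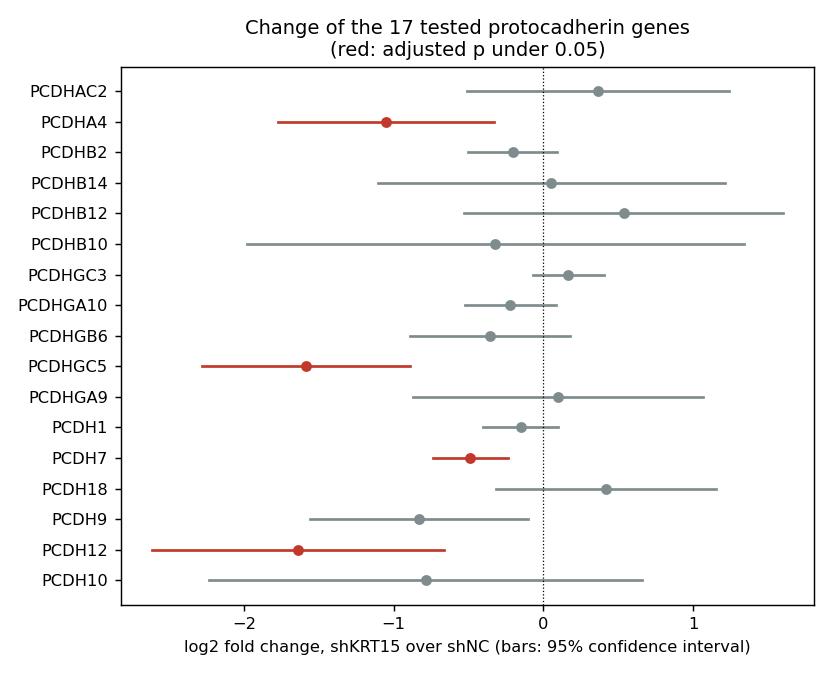
Log2 fold change, shKRT15 over shNC, of the 17 tested protocadherin genes (x axis) with 95% confidence intervals, ordered by cluster; red marks an adjusted p under 0.05. PCDHA4, PCDHGC5, PCDH7 and PCDH12 lie left of 0 with their whole interval, as does the uncalled PCDH9, and no interval lies wholly right of 0.

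**Figure D2:**
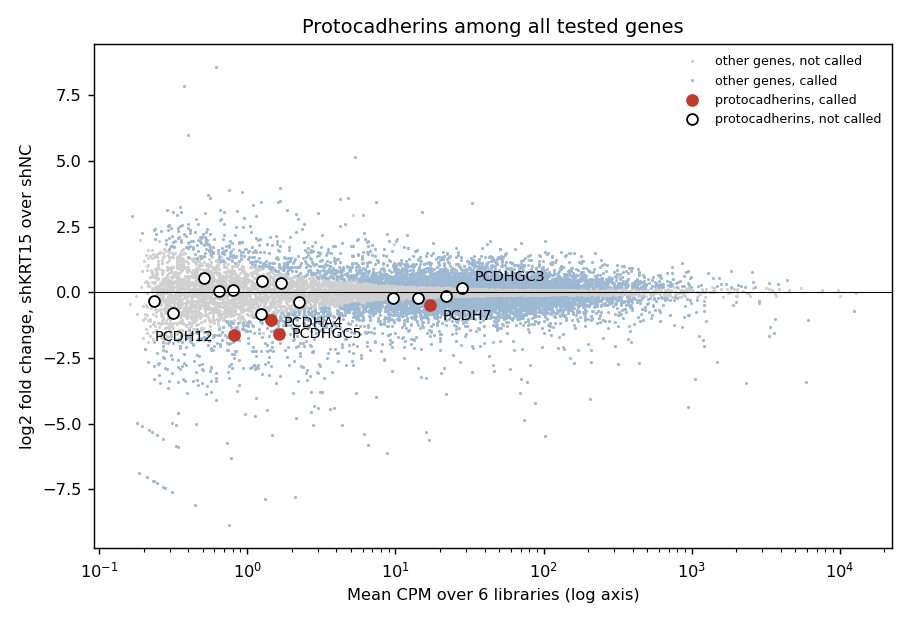
Log2 fold change, shKRT15 over shNC (y axis), against the mean CPM of the 6 libraries (x axis, log scale) for all 14356 tested genes, with the 17 protocadherins as large points. The 4 called protocadherins lie below 0 and 12 of the 17 have a mean under 3 CPM.

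The PCDHG cluster held the most protocadherin reads, and its 2 leading genes did not pass the test while a minor gene, PCDHGC5, fell. PCDHGC3 encodes a C-type gamma protocadherin, which in mouse neurons acts on dendrite branching through Axin1. It had 30.4, 26.2 and 33.5 CPM in shKRT15 replicates 1 to 3, against 30.5, 24.95 and 24.7 CPM in shNC replicates 1 to 3. The groups overlapped, since shNC replicate 1 was as high as shKRT15 replicate 1. The log2 fold change was 0.17 ± 0.11 (SE; edgeR adjusted p = 0.251), with a 95% interval of -4.87% to 32.1% for the change in level. PCDHGA10, an A-type gamma gene, had 12.99, 11.1 and 15.6 CPM in shKRT15, against 18.0, 15.2 and 12.95 CPM in shNC. The groups overlapped here too, with the lowest shNC library below the highest shKRT15 library (log2 fold change -0.22 ± 0.14 SE, edgeR adjusted p = 0.232). Its value moved between -0.0869 (without shNC replicate 1) and -0.355 (without shKRT15 replicate 3) when a library was left out. After each library's trend on transcript GC content and length had been removed (the GC and length correction), PCDHGA10 was called lower (log2 fold change -0.371, adjusted p = 0.0177) and the value of PCDHGC3 came to 0.00887.

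PCDHGC5 encodes another C-type gamma protocadherin, which in rat neurons binds a subunit of the GABA-A receptor. It had 0.806, 0.769 and 0.866 CPM in shKRT15 (33, 33 and 35 reads), against 3.09, 2.58 and 1.66 CPM in shNC (112, 92 and 59 reads). All 3 shKRT15 libraries lay within a narrow band under the lowest shNC library. The means were 0.813 ± 0.0489 CPM in shKRT15 and 2.45 ± 0.723 CPM in shNC (SD, n = 3 each), a 3.00-fold lower level (log2 fold change -1.59 ± 0.33 SE, edgeR adjusted p = 0.000812). The call held under every alternative tried, with adjusted p-values of 3.04e-05 to 0.00721. The other tested gamma genes were PCDHGB6, at 1.66 to 2.33 CPM in shKRT15 and 2.33 to 2.79 CPM in shNC (adjusted p = 0.273), and PCDHGA9, at 0.722 to 0.964 CPM in shKRT15 and 0.414 to 1.13 CPM in shNC (adjusted p = 0.883, edgeR for both). PCDHGB6 did not overlap between the groups, yet its nearest libraries differ only in the fourth digit.

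The shares of PCDHGC3 and PCDHGC5 within PCDHG did not overlap between the groups, although the sum of the cluster did. PCDHGC3 and PCDHGC5 differ in their first exon and share the 3 constant exons. Summed over the 16 genes, PCDHG had 47.4 ± 5.91 CPM in shKRT15 and 48.6 ± 6.22 CPM in shNC (SD, n = 3 each), a log2 ratio of -0.04 that turned to 0.0206 with total counts as the scaling. PCDHGC3 made up 64.5, 62.9 and 62.6% of the PCDHG reads in shKRT15, against 54.9, 53.9 and 56.4% in shNC. PCDHGC5 made up 1.71, 1.85 and 1.62% in shKRT15, against 5.56, 5.58 and 3.80% in shNC. Both shares separated the groups without overlap. They are a description, and in CPM the groups did not overlap for 54% of all tested genes. How reads from the constant exons were assigned is not known and could affect these shares. For each 100 reads of PCDHGC3 there were 2.65, 2.94 and 2.59 reads of PCDHGC5 in shKRT15, against 10.1, 10.3 and 6.73 in shNC. A two-sided exact permutation test of this ratio, a pair chosen after its values were seen, gave p = 0.1, the smallest 3 against 3 can give.

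**Figure D3:**
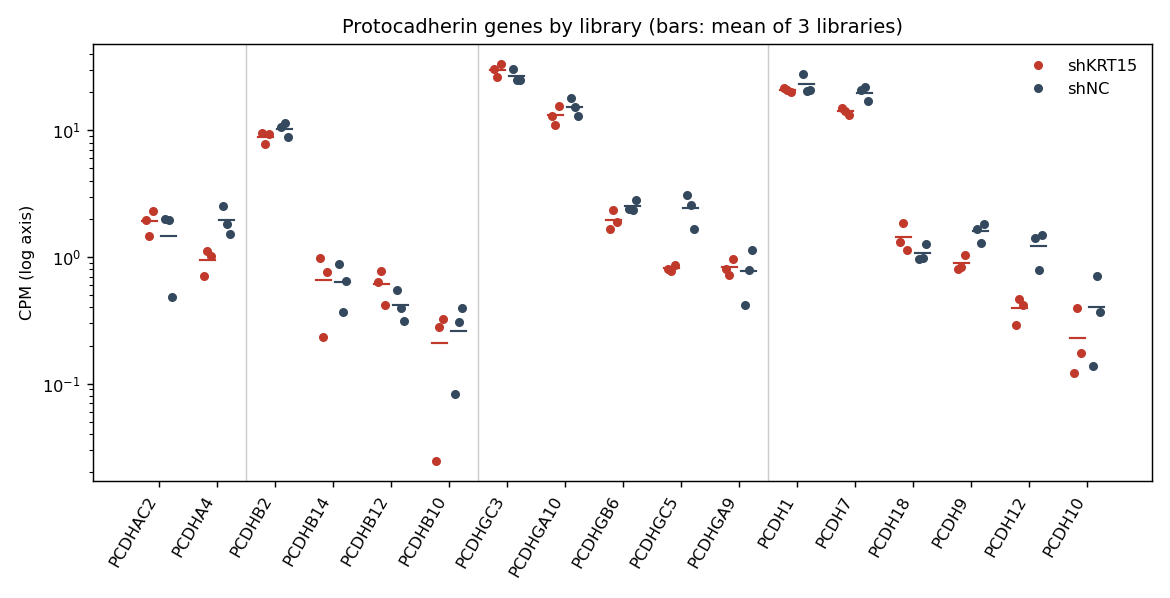
CPM (y axis, log scale) of the 17 tested protocadherin genes in each library, shKRT15 in red and shNC in dark blue, with a bar at the mean of 3 libraries and grey lines between PCDHA, PCDHB, PCDHG and the non-clustered genes. The groups are clear of each other in PCDHA4, PCDHGC5, PCDH7, PCDH9 and PCDH12, and interleave in PCDHGC3, PCDHGA10, PCDHB2 and PCDH1.

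In the PCDHA cluster nearly all reads fell on 2 genes, PCDHA4, which was lower in shKRT15, and PCDHAC2, which did not pass the test. PCDHA4 encodes an alternate alpha protocadherin. It had 0.708, 1.12 and 1.01 CPM in shKRT15 (29, 48 and 41 reads), against 2.54, 1.82 and 1.52 CPM in shNC (92, 65 and 54 reads). Every shKRT15 library lay below every shNC library, and PCDHA4 fell by 51.7% (log2 fold change -1.05 ± 0.34 SE, edgeR adjusted p = 0.0187). The call rests on the libraries at the ends of the range: without shKRT15 replicate 1 the adjusted p was 0.0791, and without shNC replicate 1 it was 0.110, with log2 fold changes of -0.87 and -0.81. It was also lost, at 0.0571, with the replicate number as a block and the GC and length correction.

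PCDHAC2 encodes a C-type alpha protocadherin needed in mice for the even spacing of serotonergic axons. It had 1.95, 1.47 and 2.30 CPM in shKRT15, against 1.99, 1.96 and 0.480 CPM in shNC. One library set the difference, since shNC replicate 3 held 17 reads where the other shNC libraries held 72 and 70; the log2 fold change was 0.37 ± 0.41 (SE; edgeR adjusted p = 0.502) and -0.0543 without that library. PCDHA4 made up 26.1 to 43.2% of the PCDHA reads in shKRT15 and 45.8 to 71.1% in shNC, and PCDHAC2 made up 56.8 to 72.1% in shKRT15 and 22.4 to 49.3% in shNC. The larger of the 2 genes was thus PCDHAC2 in all 3 shKRT15 libraries and PCDHA4 in 2 of the 3 shNC libraries. Summed, PCDHA had 2.88 ± 0.404 CPM in shKRT15 and 3.61 ± 1.32 CPM in shNC (SD, n = 3 each), with overlapping groups. The 6 other PCDHA genes of the table had 3 reads in shKRT15 and 18 in shNC in all.

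**Figure D4:**
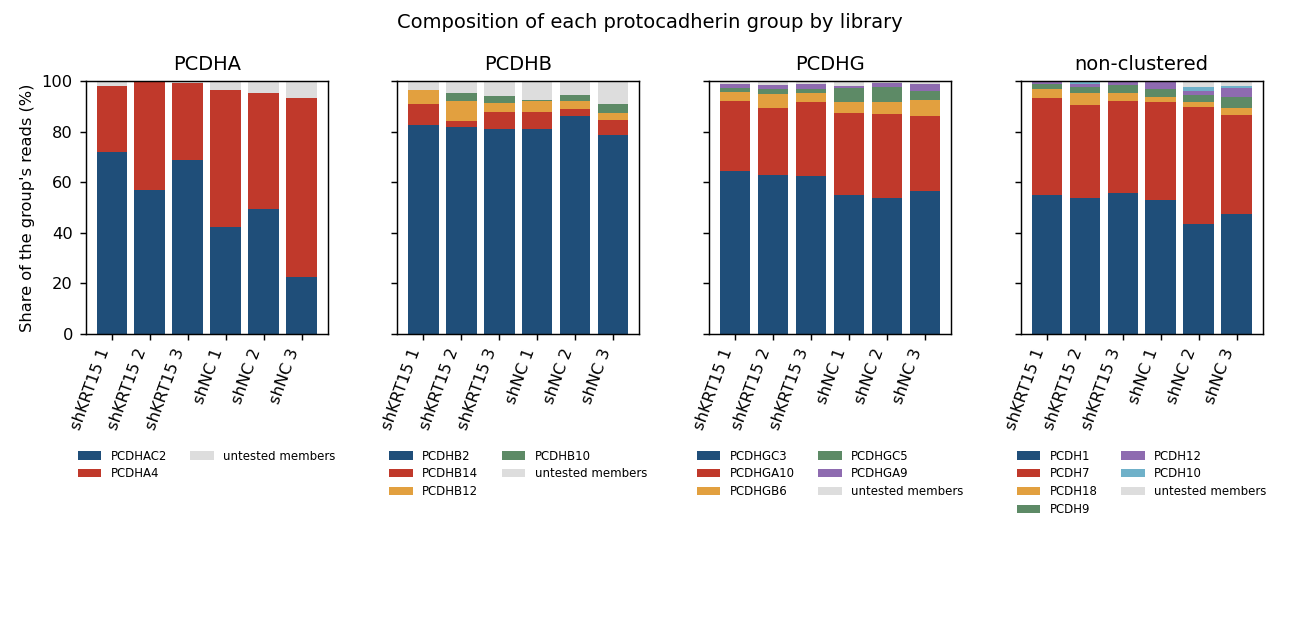
Share of each group's reads (y axis, %) held by its tested genes in each library, with shKRT15 libraries left of shNC libraries; grey is the sum of untested genes. PCDHGC3 holds 62.6 to 64.5% of PCDHG in shKRT15 and 53.9 to 56.4% in shNC, PCDHAC2 holds more of PCDHA in shKRT15, and PCDHB2 holds 78.7 to 86.4% of PCDHB in every library.

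The PCDHB cluster was carried by PCDHB2, and 0 of its 4 tested genes were called by edgeR, as were 0 at an unadjusted p under 0.05, 0 by DESeq2 and 0 by limma-voom. PCDHB genes encode protocadherins without the shared constant tail. PCDHB2 had 9.57, 7.80 and 9.37 CPM in shKRT15, against 10.6, 11.4 and 8.86 CPM in shNC. The lowest shNC library lay between the shKRT15 libraries (log2 fold change -0.20 ± 0.14 SE, 95% interval of -29.3% to 6.59%, edgeR adjusted p = 0.256). PCDHB2 made up 81.7 ± 0.772% of PCDHB reads in shKRT15 and 82.0 ± 3.93% in shNC (SD, n = 3 each). PCDHB14, PCDHB12 and PCDHB10 lay between 0.0244 and 0.977 CPM over the 6 libraries, with log2 fold changes of 0.05 ± 0.55, 0.54 ± 0.50 and -0.32 ± 0.79 (SE), and depth limits what can be read from them: the interval for PCDHB10 runs from -74.7% to 153%. The signs of PCDHB14 and PCDHB10 turned under some alternatives. PCDHB genes resemble each other closely, and no source used here says how reads that match several of them were counted.

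Among the non-clustered genes PCDH7 and PCDH12 were lower in shKRT15, and the sum over all 10 was lower without overlap. PCDH7 encodes a delta protocadherin whose tail binds the phosphatase PP1 alpha and which in lung cancer cells binds SET, an inhibitor of the phosphatase PP2A. It had 15.1, 14.3 and 13.1 CPM in shKRT15 (618, 613 and 530 reads), against 20.7, 21.9 and 16.99 CPM in shNC (751, 779 and 602 reads). The highest shKRT15 library was below the lowest shNC library, and the means of 14.2 ± 0.999 CPM in shKRT15 and 19.9 ± 2.55 CPM in shNC (SD, n = 3 each) stand 1.40-fold apart (log2 fold change -0.49 ± 0.12 SE, edgeR adjusted p = 0.00271). The adjusted p stayed between 0.000165 and 0.0246 under the alternatives. It was the only called gene among the 5 most abundant protocadherins. PCDH1, a delta protocadherin of airway epithelium that New World hantaviruses use as a receptor, had 21.4, 20.8 and 20.01 CPM in shKRT15, against 27.9, 20.6 and 20.7 CPM in shNC. Its difference rested on shNC replicate 1, the only library outside a narrow band (log2 fold change -0.15 ± 0.12 SE, edgeR adjusted p = 0.321; 0.0153 without that library). With the GC and length correction PCDH1 was called lower, at a log2 fold change of -0.313 and an adjusted p of 0.0232.

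PCDH12 encodes VE-cadherin-2, best known from endothelium and trophoblast. It had 0.293, 0.466 and 0.420 CPM in shKRT15 (12, 20 and 17 reads), against 1.41, 0.786 and 1.496 CPM in shNC (51, 28 and 53 reads). The groups did not overlap, and the level was 3.11-fold lower (log2 fold change -1.64 ± 0.46 SE, edgeR adjusted p = 0.00811, 0.00359 to 0.0372 under the alternatives). Its exons overlap those of RNF14 on the opposite strand by 98 bases, the strand setting of the counts is not stated, and RNF14 was itself lower (log2 fold change -0.22 ± 0.07 SE, edgeR adjusted p = 0.0172) at 77.5 CPM in shKRT15 and 90.5 CPM in shNC. The endothelial markers PECAM1, VWF and KDR averaged 1.17, 0.112 and 0.106 CPM in shKRT15, and 0.755, 0.103 and 0.214 CPM in shNC. With the fibroblast markers they formed a list of which 4 of 9 genes were tested, 1 was higher (PDGFRB) and 2 were lower (COL1A1 and LUM), and their sum was 8.80 to 9.99 CPM in shKRT15 and 19.1 to 24.5 CPM in shNC. The part of these genes in the fall of PCDH12 was not tested.

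PCDH9, a delta protocadherin, lay just outside the threshold. It had 0.806, 0.838 and 1.04 CPM in shKRT15, against 1.66, 1.29 and 1.83 CPM in shNC. The groups did not overlap (log2 fold change -0.83 ± 0.35 SE, edgeR adjusted p = 0.0591). The adjusted p was 0.0367 with a filter of 1 CPM in 3 libraries and 0.615 with the GC and length correction, where the log2 fold change came to -0.239. PCDH18 was at 1.14 to 1.84 CPM in shKRT15 and 0.966 to 1.27 CPM in shNC (adjusted p = 0.353), and PCDH10, a gene often silenced by promoter methylation in carcinomas, at 0.122 to 0.396 CPM in shKRT15 and 0.138 to 0.702 CPM in shNC (adjusted p = 0.376, edgeR for both). Summed, the non-clustered genes had 37.9 ± 1.73 CPM in shKRT15 and 48.0 ± 4.76 CPM in shNC (SD, n = 3 each), with ranges of 35.9 to 39.1 CPM in shKRT15 and 43.5 to 53.0 CPM in shNC, and most of that difference lay in PCDH7 and PCDH1.

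Genes that could not be tested were 32 in number, with 142 reads in shKRT15 and 272 in shNC over all of them. The one that stood apart was PCDH15, which encodes a part of the tip link of inner ear hair cells. It had 1, 2 and 0 reads in shKRT15, against 4, 28 and 27 reads in shNC. Counted together these are 3 against 59 reads, and after scaling for depth the ratio of shNC to shKRT15 was 22.8 with an exact 95% interval of 7.43 to 114, which covers counting error only. Since 1 of the 3 shNC libraries held few reads, the gene failed the filter, and without a filter edgeR called it lower (adjusted p = 0.000178). PCDHGA12 was also called lower without a filter (adjusted p = 0.0313), but its 16 reads were all in shNC replicate 1. PCDHB16 had 7 reads in shKRT15 and 31 in shNC, PCDHB15 had 1 in shKRT15 and 13 in shNC, and PCDH19, a gene of an X-linked epilepsy, had 2 in shKRT15 and 15 in shNC, of which 13 were in shNC replicate 2. PCDHB9 had 27 reads in shKRT15 and 22 in shNC, PCDHGB2 had 16 in shKRT15 and 24 in shNC, and each of the rest under 25 over the 6 libraries.

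To order the genes by level, CPM was divided by the length of exon that a gene shares with no other protocadherin (principal transcripts of GENCODE 29), because 45.5 to 54.9% of a PCDHA or PCDHG transcript is constant exon. On this scale of CPM per kilobase of unshared exon, PCDHGC3 was at 11.8 ± 1.44 in shKRT15 and 10.5 ± 1.29 in shNC (SD, n = 3 each), the highest level in both groups. PCDHGA10 followed at 5.43 ± 0.941 in shKRT15 and 6.32 ± 1.04 in shNC, then PCDH1 at 4.33 ± 0.148 in shKRT15 and 4.81 ± 0.883 in shNC. PCDH7 was at 2.21 ± 0.156 in shKRT15 and 3.10 ± 0.399 in shNC, and PCDHB2 at 2.16 ± 0.235 in shKRT15 and 2.49 ± 0.311 in shNC. Between neighbours in the order of mean level, 3 of 16 pairs had ranges over the 6 libraries that did not overlap: PCDHGC3 above PCDHGA10, PCDH1 above PCDH7, and PCDHB2 above PCDHGB6. The ranges of the other 13 pairs overlapped, although PCDHGA10 was above PCDH1 in each of the 6 libraries. No source used here says how reads from constant exons were assigned among the genes of a cluster, and if they were counted the values of PCDHA and PCDHG genes on this scale are too high. The first 5 genes together held 87.8 ± 1.18% of all protocadherin reads in shKRT15 and 84.6 ± 0.897% in shNC (SD, n = 3 each).

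**Figure D5:**
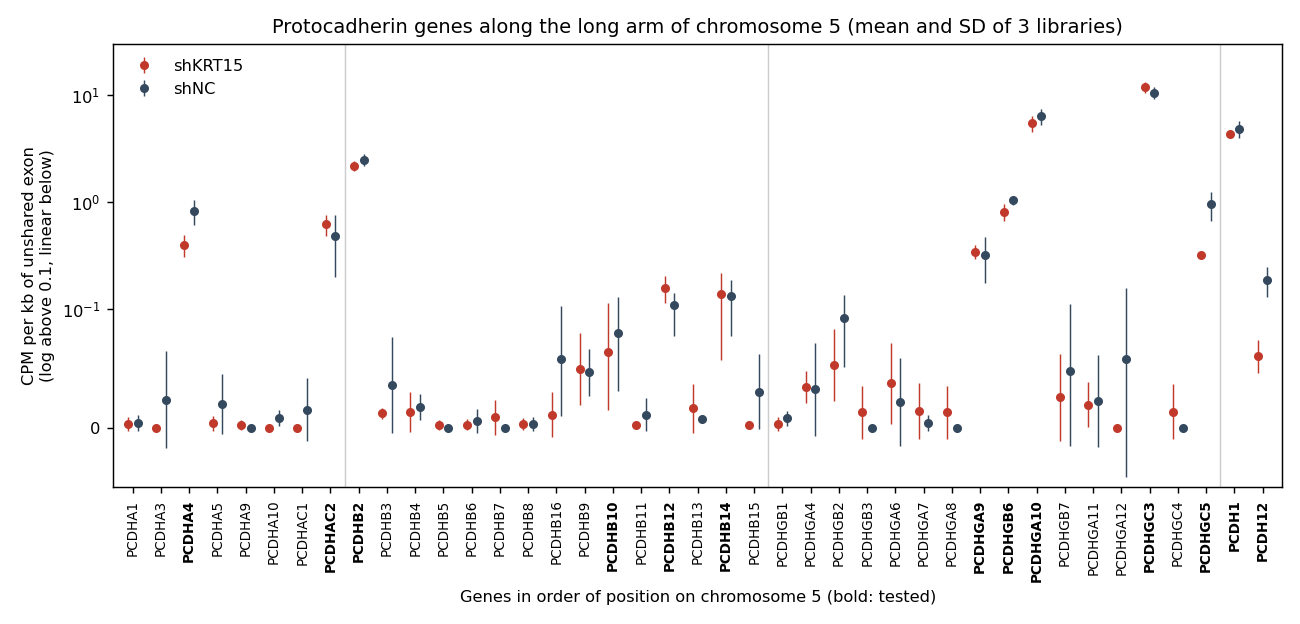
CPM per kilobase of unshared exon (y axis, log above 0.1 and linear below; mean and SD of 3 libraries) of the protocadherin genes of chromosome 5 in their order along it, with shKRT15 in red left of shNC in dark blue and tested genes in bold. High and near-silent genes stand side by side in each cluster, and PCDHB2 and PCDHGC3, at 2.16 to 11.8 CPM per kilobase in shKRT15, each have a neighbour under 0.1.

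Expression along the locus was sparse, in both groups. In PCDHA, PCDHA4 and PCDHAC2 stood among 6 genes with at most 6 reads each. In PCDHG the tested A-type and B-type genes PCDHGA9, PCDHGB6 and PCDHGA10 are direct neighbours in the table's order of genes, and PCDHGC3 and PCDHGC5 lie at its distal end on both sides of PCDHGC4, which had 4 reads in 1 library. PCDH1 and PCDH12, non-clustered genes, follow on the distal side. Of 22 tested genes that flank or lie within the clusters and are not protocadherins, 3 were higher and 5 lower (median log2 fold change -0.05). The 36.4% called lie under the 45% of all tested genes. At 3 CPM or more, 8 of 20 were called (40%), under the 51.1% of all genes at that level. The 4 with the smallest p-values differed as follows: SLC35A4 by 0.54 ± 0.07, DIAPH1 by 0.49 ± 0.07, HDAC3 by 0.42 ± 0.08 and RNF14 by -0.22 ± 0.07 (log2 fold change ± SE; edgeR adjusted p = 1.56e-05, 2.39e-05, 0.000304 and 0.0172). TAF7, which sits between PCDHB and PCDHG, was at 167 ± 12.2 CPM in shKRT15 and 192 ± 1.61 CPM in shNC (SD, n = 3 each; log2 fold change -0.20, edgeR adjusted p = 0.0313).

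Genes for CTCF, cohesin, DNA methylation and silencing changed in both directions. The clusters' sums overlapped between the groups, and any link between these genes and the clusters was not tested. Of 17 genes for CTCF, cohesin and their regulators, 6 were higher and 3 lower (52.9% called, median log2 fold change 0.04). ESCO2 and CDCA5, which act on cohesin in S phase, were higher by 2.18 ± 0.14 and 1.22 ± 0.09, SMC1A, a cohesin subunit, was higher by 0.90 ± 0.10, and ESCO1, the acetyltransferase of cohesin through interphase, was lower by 0.68 (log2 fold change -0.68 ± 0.12 SE). CTCF itself averaged 66.1 ± 1.03 CPM in shKRT15 and 51.6 ± 3.95 CPM in shNC (SD, n = 3 each; log2 fold change 0.36, edgeR adjusted p = 0.00184). Of 16 genes for DNA methylation and silencing, 7 were higher and 2 lower (56.3% called, median log2 fold change 0.21). UHRF1 and DNMT1, which copy methylation onto new DNA, were higher by 1.195 ± 0.09 and 1.06 ± 0.09, HELLS, a chromatin remodeller, by 0.73 ± 0.11 and EHMT2, a histone H3 methyltransferase, by 0.52 ± 0.08 (log2 fold change ± SE). Nearly all genes of both lists have a mean of at least 3 CPM, where 51.1% of all genes were called and 25.7% were lower. The shares called in either direction are thus near the background. By direction both lists leaned towards higher, with 6 higher and 3 lower in the first and 7 higher and 2 lower in the second.

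Downstream of the protocadherins, 21 genes for intracellular partners (FAK family kinases, the WAVE complex, small GTPases, Axin and phosphatase partners) were all tested, and 10 were higher and 4 lower (median log2 fold change 0.11). All have a mean of at least 3 CPM, and the 66.7% called stand beside 51.1% of all genes at that level. CYFIP2 and CYFIP1, WAVE complex subunits, were higher by 0.76 ± 0.10 and 0.39 ± 0.07, while PDCD10 and the kinase FYN had log2 fold changes of -0.67 ± 0.09 and -0.58 ± 0.11 (SE). SET and PPP1CA, the partners of PCDH7 named above, were higher by 0.17 ± 0.07 and 0.22 ± 0.07 (log2 fold change ± SE; edgeR adjusted p = 0.0467 and 0.0133). Of 8 genes for the proteases that cut protocadherins, 0 were higher by edgeR, as were 0 at an unadjusted p under 0.05, and 3 were lower (median log2 fold change -0.05). The 37.5% called, all of them lower, stand beside 51.1% called and 25.7% lower among all genes of at least 3 CPM. A list of 8 genes is too short to read a share from. The 3 were ADAM17 at -0.73 ± 0.08, PSEN2 at -0.47 ± 0.11 and APH1B at -0.30 ± 0.10 (log2 fold change ± SE, edgeR adjusted p = 1.11e-06, 0.00168 and 0.0178). ADAM10, the main sheddase of gamma protocadherins, had 202 ± 14.3 CPM in shKRT15 and 183 ± 16.3 CPM in shNC (SD, n = 3 each; edgeR adjusted p = 0.153).

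Most neural markers were low, with TUBB3, at 41.2 CPM in shKRT15 and 34.5 CPM in shNC, as the exception. Of 13 neural markers 6 were tested, 1 was higher (TUBB3) and 3 were lower (SNAP25, RBFOX3 and SYT1), and their summed level was 39.6 to 48.4 CPM in shKRT15 and 39.3 to 42.6 CPM in shNC, most of it TUBB3. SNAP25, RBFOX3 and SYT1 averaged 0.879, 0.233 and 1.15 CPM in shKRT15, and 1.82, 0.969 and 2.19 CPM in shNC, levels like those of PCDHA4 and PCDHGC5. SYP and MAP2, also tested, were not called. SYP averaged 0.865 CPM in shKRT15 and 0.381 CPM in shNC (edgeR adjusted p = 0.0800). MAP2 averaged 0.177 CPM in shKRT15 and 0.512 CPM in shNC, without overlap (log2 fold change -1.52, edgeR adjusted p = 0.0515). NEFL, NEFM and GAP43 were at 0 in shKRT15 and averaged 0.0184, 0.0658 and 0.0658 CPM in shNC, and STMN2 averaged 0.0326 CPM in shKRT15 and was at 0 in shNC. Of 7 leukocyte markers 4 were tested and 3 were lower (CSF1R, LYZ and CD68), with a summed level of 53.9 to 71.0 CPM in shKRT15 and 91.3 to 94.6 CPM in shNC, nearly all of it CD68, and PTPRC was at 0 in shKRT15 and at 0.140 to 0.580 CPM in shNC. The part of these marker genes in the differences of PCDHA4, PCDHGC5 and PCDH12 was not tested.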

How the data were processed

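The authors deposited whole-number read counts, 1 value for each gene and library, which are not normalized, as their differing library totals show. The genome build was GRCh38, per the submitters' processing notes; no source used here gives the aligner, counting tool, annotation or strand setting. TRIzol-extracted RNA went through mRNA purification and fragmentation into Illumina libraries, per the labels' protocols. Confidence intervals of fold changes come from the fit and include the spread between cultures; the interval of PCDH15's read ratio covers counting error only.

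Libraries were placed in groups by their titles. Genes were kept by filterByExpr (minimum count 10, minimum total 15), and 14356 genes were fitted with edgeR 4.0.16 (R 4.3.3; TMM, robust quasi-likelihood test, Benjamini-Hochberg adjustment, called under 0.05). Libraries of 1 group differed beyond sampling noise (chi-square per degree of freedom 6.24 to 31.1). Each was counted as a sample, although this spread does not show that the cultures were independent. Alternatives were DESeq2 1.42.0, limma-voom 3.58.1, other scalings and filters, protein-coding genes only, a replicate block, removal of each library's trend on GC content and length (the GC and length correction) fitted with mgcv 1.9.3 (values for 95.2% of tested genes) and leaving out each library. Reads sharing paralogs or antisense genes cannot be separated: opposite-strand exons overlap PCDHB2 by 620, PCDHAC2 by 256 and PCDH9 by 144 bases. Exon lengths come from GENCODE 29 and promoters from RefSeq.

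The genes and lists were chosen with earlier results of these data known. Full statistics are given for called members and the 5 most abundant, and the 4 genes with the smallest p-values are named from each list of regulators, partners, proteases and neighbours; genes named beyond that (among them CTCF, TAF7, SET, PPP1CA, ADAM10, PCDH9, PCDHAC2, PCDHGC3 against PCDHGC5 as a pair, and the cell type markers) were chosen after their values were seen.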

Additional observations from a re-analysis of the deposited data

How the results depend on the processing

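Under all 16 alternatives no protocadherin was called higher, and 4 to 6 were called lower: 6 after the GC and length correction, 6 without a filter (PCDH15 and PCDHGA12 added), 5 with DESeq2 (PCDH15 added), 5 with the replicate block and that correction together, and 4 or 5 otherwise. Leaving out each library gave 4 to 5 called lower, 2547 to 3295 genes higher and 2647 to 3452 lower over all genes, and a log2 fold change of KRT15 between -0.457 and -0.295. Same-numbered libraries showed little common deviation (correlations of -0.00868 to 0.0437). These values show no pairing by number and cannot exclude one. With the replicate block 3305 genes were higher, 3428 were lower and 4 protocadherins were lower. PCDH7, PCDH12 and PCDHGC5 kept their call in every alternative that fitted them; with the 1 CPM filter PCDH12 has no value.

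Calls lost were those of PCDHA4, at adjusted p-values of 0.0571 (replicate block with the correction), 0.0791 (without shKRT15 replicate 1) and 0.110 (without shNC replicate 1). Calls gained were those of PCDH1 (0.0232 with the correction, 0.0177 with the block as well), PCDHGA10 (0.0177 and 0.0202) and PCDH9 (0.0367 with the 1 CPM filter), and that of PCDH15, not tested otherwise, without shKRT15 replicate 1, 2 or 3 or shNC replicate 1 (0.00966, 0.0077, 0.0121 and 0.000298). Signs turned for genes not called with all libraries and no correction: PCDH1 to 0.0153 without shNC replicate 1 (lowest -0.229 over the libraries left out); PCDHAC2 to -0.0543 without shNC replicate 3 (highest 0.645); PCDHB10 to 0.204 without shKRT15 replicate 1 and 0.0925 without shNC replicate 3 (lowest -0.757); PCDHGA9 to -0.0474 with the correction, -0.0199 without shKRT15 replicate 3 and -0.199 without shNC replicate 1 (highest 0.466). PCDHB14 turned to -0.0337 with the replicate block, -0.00128 with the block and the correction, -0.105 with limma-voom, -0.338 and -0.0666 without shKRT15 replicates 1 and 3, and -0.222 without shNC replicate 2 (highest 0.466). The PCDHG sum's log2 ratio ran from -0.129 to 0.0780 when a library was left out. The causes were not tested. Depth limits the genes under 1 CPM, whose standard errors reached 0.787 on the log2 scale.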

Other observations

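Among the 32 protocadherin genes that were not tested, 24 had at least 4 reads over the 6 libraries, and for 8 of these every read was in a single library. The 8 were PCDHB7, PCDHGB3, PCDHGC4 and PCDHGA8 in shKRT15 libraries and PCDHGA12, PCDHA3, PCDHAC1 and PCDH17 in shNC libraries. In 6 of the 8 the number of reads was exactly 4. PCDHGA12 had 16 reads in shNC replicate 1 and PCDHA3 had 6 in shNC replicate 2. Reads of 1 gene in 1 library need not be separate molecules, since no molecular identifiers are described, and whether they were was not tested.

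PCDH15 had 28 and 27 reads in shNC replicates 2 and 3 and 4 in shNC replicate 1, while PCDHA4 and PCDHGC5 were highest in shNC replicate 1, with 92 and 112 reads. PCDH15 was not among the tested genes. Of the other called genes, PCDH7 was highest in shNC replicate 2, with 779 reads, and PCDH12 in shNC replicate 3, with 53 reads. The called genes thus had their highest level in different shNC libraries, with PCDHA4 and PCDHGC5 in the same one.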
